A study of Mus musculus with 6 samples.

Results

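The genes described here are the 51 mouse genes of the DNA replication machinery, out of the 54532 genes listed in a bulk RNA-seq count table of primary myoblasts. They were taken by symbol from a list of replication genes and cover origin recognition, licensing, the MCM2-7 helicase, its activators, the replicative polymerases and primase, the sliding clamp and its loader, single-strand binding, lagging-strand maturation, nucleotide supply, chromatin assembly and the S-phase kinase. The comparison was between 3 libraries of wild-type cells (WT 1 to 3) and 3 libraries labelled eIF5A-KO (KO 1 to 3). Cells of both groups came from hind-limb muscles of C57BL/6j mice aged 3 weeks, were grown with 10 µg/ml FGF as labelled, and were collected while proliferating on day 2. The eIF5A-KO mice were Pax7CreERT2/+;eIF5A f/f and received tamoxifen (TMX), which activates a Cre recombinase driven by the Pax7 locus. Deletion is therefore limited to cells that expressed Pax7, and any other cell in the culture keeps the gene. The WT littermates are described in one place as Pax7CreERT2/+ and in another as Pax7+/+;eIF5A f/f, so that the exact control genotype is not settled by the sources used here. The study speaks of the RNA-seq as done in triplicate experiments, but the labels do not say which animals or cultures the libraries of a group came from, and the p-values measure the spread between these libraries.

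Replication of DNA begins with the origin recognition complex, on which Cdc6 and Cdt1 load the ring-shaped MCM2-7 helicase during G1. In S phase the cyclin E kinase Cdk2 and the kinase Cdc7 activate the helicase with Cdc45 and the GINS complex, and the polymerases copy the unwound strands on the PCNA clamp. Many of these genes are transcribed as cells enter S phase, under E2F factors, and myoblasts stop transcribing them when they leave the cell cycle to differentiate. eIF5A is a translation factor that helps ribosomes through difficult stretches of peptide, and it carries hypusine, a residue made from the polyamine spermidine.

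Promoter windows of RefSeq (GRCm38.p6), from 250 bases before to 50 bases after each annotated start, were found for 42 of the 51 genes, and not for Ccne2, Gins1, Gins2, Gins4, Gmnn, Mcm4, Pole, Prim2 and Rfc2. Letters that E2F factors are known to favour were searched on both strands as TTTGGCGC, TTTGCCGC, TTTCGCGC and TTTCCCGC, and overlapping matches were kept. They occurred in the windows of 16 of the 42 genes (38.1%), against 704 of 27025 genes with a window (2.6%). Stretches of 30 bases around 8 of the matches are shown for the helicase genes Mcm5 and Mcm6, for the genes with the steadiest differences between the groups that had a match (Pola1 and Topbp1), for the loading factors Cdc6 and Cdt1, and for the clamp loader gene Rfc3. The matches of the helicase genes Mcm3 and Mcm7 are not printed. They are written 5′ to 3′ on the strand of the gene, with 1 match in capitals in each. A further match, on the other strand, overlaps the capitals in the Mcm5 and the upstream Mcm6 stretches and follows them in lower case in the Rfc3 stretch.
Mcm5: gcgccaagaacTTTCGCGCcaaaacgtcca
Mcm6, upstream match: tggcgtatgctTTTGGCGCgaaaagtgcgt
Mcm6, downstream match: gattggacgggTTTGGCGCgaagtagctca
Pola1: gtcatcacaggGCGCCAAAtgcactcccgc
Topbp1: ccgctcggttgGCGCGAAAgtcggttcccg
Cdc6: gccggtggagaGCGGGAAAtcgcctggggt
Rfc3: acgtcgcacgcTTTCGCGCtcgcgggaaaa
Cdt1: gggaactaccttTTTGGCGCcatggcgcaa

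The Mcm5 stretch is at chr8:75109345-75109374 on the plus strand, with its capitals beginning 153 bases before the start. The Mcm6 stretches are at chr1:128359797-128359826 and chr1:128359734-128359763 on the minus strand, and their capitals begin 110 and 47 bases before the start. The Pola1 stretch (chrX:93632275-93632304, minus strand) and the Topbp1 stretch (chr9:103305187-103305216, plus strand) have their capitals 138 and 129 bases before the start, with the letters on the strand opposite to the gene. All of these matches lie outside annotated genes in GENCODE M21. The Cdc6 match (chr11:98908002-98908031, plus strand) lies 138 bases before the RefSeq start and within an intron of a longer annotated Cdc6 transcript. The Rfc3 match (chr5:151651200-151651229, minus strand) begins 10 bases before the start, in an exon of the gene as GENCODE draws it. In Cdt1 (chr8:122568035-122568064, plus strand) the match lies in an exon of the gene, from position 32 counted from the start base as 0. Of 22 matches in the 16 genes, 14 began before the start and 8 at or after it. A match is a description of the letters in the window and says nothing about binding.

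**Figure D1:**
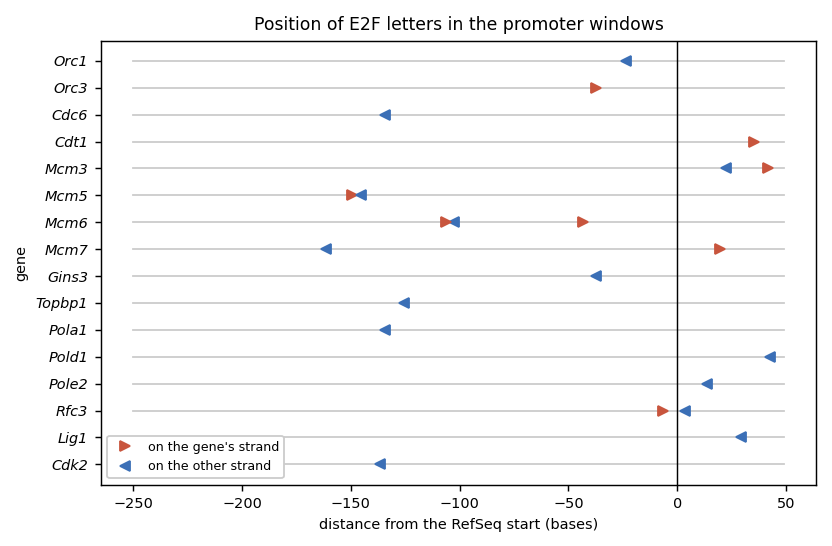
Position of the E2F letters in the promoter windows of the 16 replication genes that had a match; the horizontal axis is the distance from the RefSeq start in bases, each grey line is a window, and arrowheads give the strand of the letters. Mcm6 has 3 matches, all before the start, whereas both matches of Mcm3 lie after it.

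Reads counted on genes numbered 16281216 to 17734551 per library. Levels are given as CPM, the count of a gene scaled to the TMM-normalized library size, and a difference between the groups is given as the log2 fold change of libraries labelled eIF5A-KO against WT, with its standard error (SE). The transcript of the targeted gene, Eif5a, was at 1603, 986 and 1238 CPM in WT 1 to 3 and at 1364, 1459 and 1059 CPM in KO 1 to 3, a log2 fold change of 0.02 ± 0.23 (SE, edgeR adjusted p = 0.993). The groups overlapped, so that the counts do not show the deletion, and the second group is called by its label throughout. The myoblast marker Myod1 was at 196 to 550 CPM in the 6 libraries and the satellite cell marker Pax7 at 8.29 to 51.7 CPM. Markers of other cells were also present: the endothelial gene Pecam1 reached 282 to 820 CPM and the fibroblast gene Pdgfra 302 to 433 CPM. Among leukocyte and macrophage genes, Cd68 was at 18.6 to 60.75 CPM and Lyz2 at 23.6 to 75.0 CPM. Ptprc stayed at or under 2.55 CPM, and Adgre1, Csf1r, Itgam and C1qa reached at most 5.32 CPM. WT 1 stood apart, with 5.75% of its counts on mitochondrial transcripts against 2.11% to 3.50% in the other 5 libraries.

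The replication genes were lower as a body in the libraries labelled eIF5A-KO, by a modest amount that no gene carried past the adjusted threshold on its own. All 51 passed the expression filter and were tested. The log2 fold change was negative for 50 of them and positive for 1, Cdt1, with a range from -0.83 (Fen1) to 0.12. Its median was -0.42, a ratio of 0.746, whereas the median over all 14679 genes tested was -0.01 and 51.7% of those genes had a negative value. In bulk RNA, fewer cells in S phase and less of each transcript per cell cannot be told apart.

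None of the 51 genes had an adjusted p under 0.05 in edgeR, in DESeq2 or in limma-voom, and over all genes tested edgeR called 0.0136% lower and 0.00681% higher. At an unadjusted p under 0.05, 17 of the 51 (33.3%) were lower in edgeR, against 4.02% of all genes tested, with 21 in DESeq2 and 16 in limma-voom. None was higher, against 2.74% of all genes. For 19 of the 51 genes (37.3%), every library labelled eIF5A-KO was below every WT library, against 6.83% of all genes. The opposite arrangement was found for none of them, against 5.68% of all genes.

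**Figure D2:**
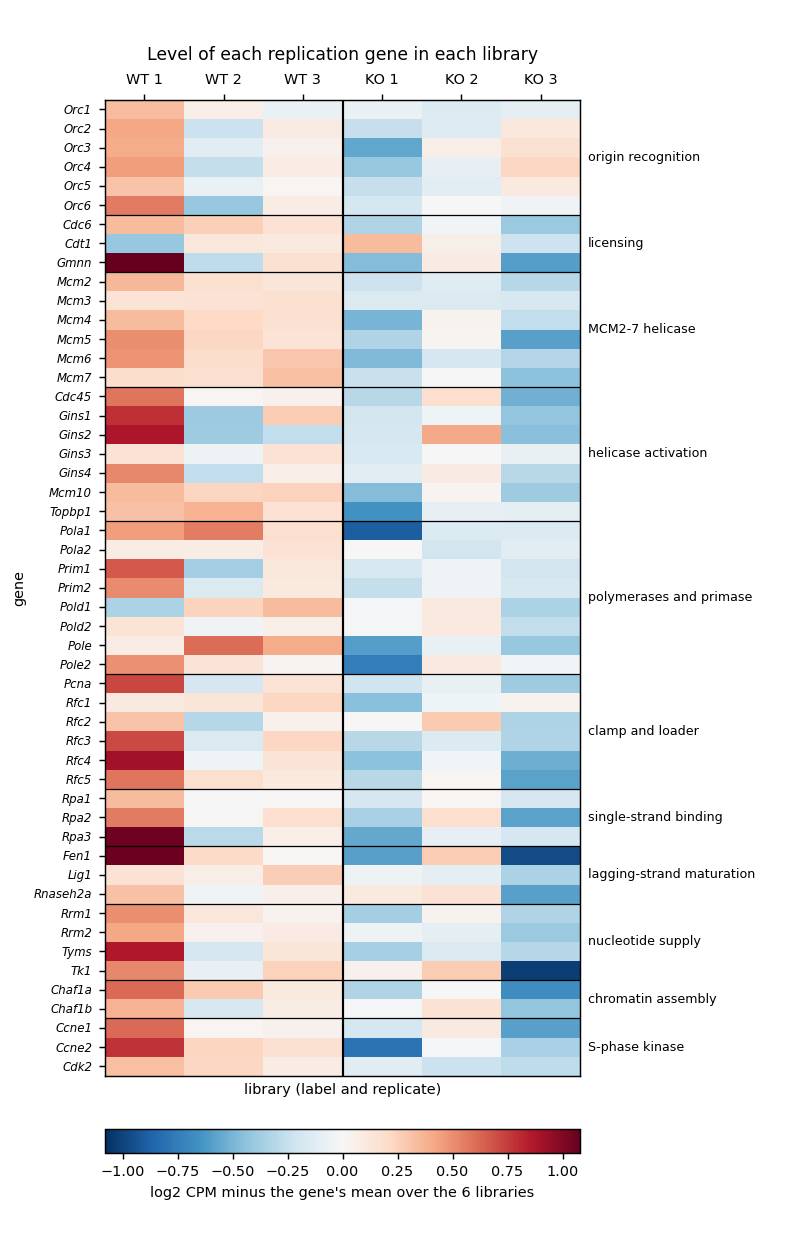
Level of the 51 replication genes (rows, by role) in the 6 libraries (columns), as log2 CPM minus the mean of the gene over the libraries. WT 1 has the highest level for 41 genes, KO 3 the lowest for 26 and KO 1 the lowest for 19.

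The libraries of a group differed among themselves. Relative to each gene's own mean, the median log2 level of the 51 genes was 0.45, 0.02 and 0.12 in WT 1 to 3 and -0.25, -0.0085 and -0.33 in KO 1 to 3. WT 1 thus stood highest, and KO 2 lay close to WT 2. Without WT 1 the median log2 fold change was -0.25 in place of -0.42, with 47 of the 51 genes lower, 12 of them at an unadjusted p under 0.05 (5.44% of all genes tested in that fit). Without KO 1 or without KO 3 the number lower at that threshold was 5 of 51, against 2.66% and 3.48% of all genes. Gene length was compared with the level in a library relative to the mean of the other libraries of its group. Across the 51 genes, which are not independent replicates, Spearman's rho was -0.409 for WT 1 and 0.432 for WT 2. Each of these libraries is part of the reference of the other, so that the 2 values are not separate. For the fold change itself rho was 0.001. The median change was -0.42 both for the 26 genes up to the median length and for the 25 longer ones. Of these, 5 and 12 were lower at an unadjusted p under 0.05 (4.02% of all genes), and 6 and 13 were free of overlap (6.83%).

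The MCM2-7 helicase, the ring that unwinds DNA at the fork, gave the clearest separation of the groups by library. Over its 6 genes the median change was -0.46, for all 6 the groups did not overlap, and 5 of the 6 were lower at an unadjusted p under 0.05, beside 6.83% and 4.02% of all genes tested. That count was 1 of 6 without KO 1 (2.66% of all genes) and without KO 3 (3.48%), and 3 of 6 without WT 3 (3.39%). Mcm6 was at 267, 218 and 234 CPM in WT 1 to 3 and at 137, 168 and 154 CPM in KO 1 to 3. All WT libraries lay above all libraries labelled eIF5A-KO, with means of 239.8 ± 25.2 and 153 ± 15.5 CPM (SD, n = 3 each). Its log2 fold change, -0.65 ± 0.17 (SE, edgeR adjusted p = 0.398), had the lowest p of the 51 genes.

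Mcm5 was at 165, 136 and 129.5 CPM in WT and at 93.4, 119 and 77.8 CPM in KO, a log2 fold change of -0.57 ± 0.20 (SE, edgeR adjusted p = 0.571). KO 2 came nearest to WT without reaching it. Mcm4 was at 123, 113 and 109 CPM against 68.7, 100 and 80.9 CPM, a change of -0.47 ± 0.18 (SE, edgeR adjusted p = 0.647). Again KO 2 was the highest of its group and below every WT library, and a copy of 1861 bases at 91.1% identity lies in Gm9577. Mcm2, whose product carries a histone-binding tail, was at 155, 137 and 132 CPM against 104, 110.2 and 97.3 CPM, a change of -0.45 ± 0.16 (SE, edgeR adjusted p = 0.571). Its groups did not overlap either.

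Mcm7 was at 165, 164 and 181 CPM in WT and at 123, 146 and 107 CPM in KO, a change of -0.44 ± 0.17 (SE, edgeR adjusted p = 0.647). The groups did not overlap. The gene shares 12.6% of its exon bases with other genes, among them Ap4m1 and Cops6 on the opposite strand, and a copy of 2157 bases at 97.7% identity lies in Gm5487, so that part of its reads may be counted elsewhere. Mcm3 was at 179, 180.3 and 182 CPM in WT and at 144, 145 and 143 CPM in KO. Libraries of a group differed by only a few CPM and the group means were 180.5 ± 1.36 and 144 ± 0.746 CPM (SD, n = 3 each). Its change, -0.32 ± 0.15 (SE, edgeR adjusted p = 0.767), was the smallest of the 6 genes. Its unadjusted p was above 0.05 in edgeR, which shares its estimate of spread between genes.

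**Figure D3:**
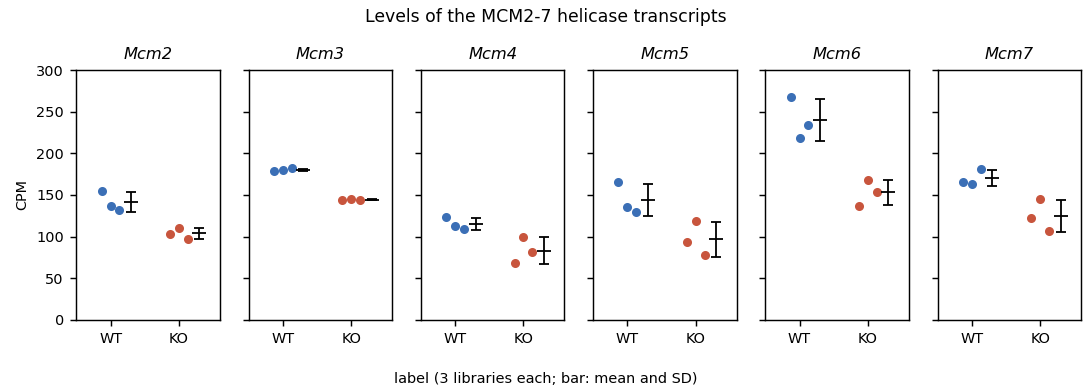
CPM of Mcm2 to Mcm7 in the 3 WT libraries (blue) and the 3 libraries labelled eIF5A-KO (KO, red), with the mean and SD of each group in black. For each of the 6 genes every KO point lies below every WT point; the group means are 239.8 and 153 CPM for Mcm6 and 180.5 and 144 CPM for Mcm3.

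The transcripts of the 6 genes were also summed. Their FPKM (fragments scaled to gene length and library size, which allows levels of different genes to be set side by side) was 237, 215 and 219.7 in WT 1 to 3 and 152, 180.0 and 151 in KO 1 to 3. Mcm6 held 21.6% to 23.8% of the sum in WT and 19.2% to 21.8% in KO, and Mcm3 held 19.9% to 22.2% and 21.3% to 25.3%. The ranges of both genes overlapped between the groups. Mcm2 was the least abundant of the 6 per gene length, at 8.6% to 9.74% of the sum in the 6 libraries.

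The origin recognition complex, which marks the sites where the helicase is loaded, had the smallest median change of these roles, -0.20. All 6 genes had negative log2 fold changes, in a band from -0.23 to -0.17. None was lower at an unadjusted p under 0.05 or free of overlap, against 4.02% and 6.83% of all genes tested. Orc1, the subunit whose supply is cell-cycle regulated, was at 9.18, 7.64 and 6.91 CPM in WT and at 6.91, 6.57 and 6.75 CPM in KO, a change of -0.23 ± 0.22 (SE, edgeR adjusted p = 0.918). WT 3 and KO 1 were at the same level. Orc4 was at 57.5, 35.3 and 44.5 CPM against 31.8, 39.6 and 49.4 CPM, a change of -0.18 ± 0.23 (SE, edgeR adjusted p = 0.947). The groups overlapped broadly, and without WT 1 its change turned to 0.02. On leaving out a library the median of the 6 genes ranged from -0.33 (without WT 2) to -0.03 (without WT 1), and it was -0.10 without KO 1. Their lower level thus depended on single libraries, most of all on WT 1.

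Per gene length, Orc6 was the most abundant subunit, with 36.2% to 43.0% of the summed FPKM of the complex, and Orc1 the least, with 3.5% to 4.95%. The sum was 71.9, 43.9 and 55.0 FPKM in WT and 43.4, 50.95 and 55.2 FPKM in KO. WT 2 was thus no higher than 2 of the libraries labelled eIF5A-KO.

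The licensing genes went separate ways, with a median change of -0.50 that was -0.25 without WT 1. Cdc6, the ATPase that loads the helicase with Cdt1, was at 29.9, 28.2 and 26.3 CPM in WT and at 18.8, 23.1 and 17.9 CPM in KO, a change of -0.50 ± 0.18 (SE, edgeR adjusted p = 0.576). Its groups did not overlap, but a copy of 1528 bases at 95.2% identity lies in Gm9430. Cdt1 was at 60.8, 87.8 and 86.6 CPM in WT and at 102, 84.0 and 68.9 CPM in KO, a change of 0.12 ± 0.21 (SE, edgeR adjusted p = 0.966). WT 1, the highest library for most of the genes, was the lowest for Cdt1. The sign turned to -0.03 without WT 1 and likewise without KO 1.

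Geminin (Gmnn), the inhibitor that holds Cdt1 back after S phase begins, was highest in the library in which Cdt1 was lowest. It was at 45.6, 17.8 and 24.2 CPM in WT and at 15.6, 22.9 and 14.3 CPM in KO. WT 1 was far above the rest and WT 2 lay within the range of KO, and the change was -0.73 ± 0.34 (SE, edgeR adjusted p = 0.777), or -0.25 without WT 1. The ratio of Cdt1 to Gmnn in FPKM was accordingly 0.622 in WT 1 and 2.3 and 1.67 in WT 2 and 3, against 3.05, 1.71 and 2.25 in KO 1 to 3. Outside WT 1 the groups overlapped.

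Of the 7 genes of helicase activation, all had negative changes (median -0.42). At an unadjusted p under 0.05, 2 were lower, and the same number did not overlap, beside 4.02% and 6.83% of all genes tested. Those were Topbp1 and Mcm10. Without WT 1 the median of the role was -0.18 and 1 of its genes, Gins2, turned positive. The number lower at an unadjusted p under 0.05 in edgeR was 0 of 7 without KO 1 (2.66% of all genes) and 1 of 7 without KO 3 (3.48%). Topbp1, a scaffold that brings firing factors to the loaded helicase, was at 105, 109 and 93.7 CPM in WT and at 53.3, 78.9 and 78.0 CPM in KO, a change of -0.55 ± 0.19 (SE, edgeR adjusted p = 0.571). KO 1 was the lowest library by a wide margin. Mcm10, which helps the active helicase separate, was at 31.0, 28.7 and 29.1 CPM against 17.7, 25.04 and 18.8 CPM, a change of -0.53 ± 0.19 (SE, edgeR adjusted p = 0.576).

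Gins2, a subunit of the GINS complex, was at the other end, at 53.2, 22.3 and 24.2 CPM in WT and 25.6, 38.7 and 21.3 CPM in KO, a change of -0.22 ± 0.35 (SE, edgeR adjusted p = 0.959). Its value became 0.30 without WT 1, -0.044 without KO 3 and -0.14 without KO 1. Gins2 shares 67.3% of its exon bases with Gse1 on the opposite strand, and the library kit is not stated to mark strand, so that reads of these genes cannot be told apart. The other GINS genes, Gins1, Gins3 and Gins4, had changes of -0.51, -0.17 and -0.25, which were -0.18, -0.13 and -0.0087 without WT 1. Gins4 held 54.7% to 59.5% of the summed FPKM of the complex in the 6 libraries. Cdc45, the factor that completes the active helicase with GINS, had a change of -0.42 ± 0.24 (SE, edgeR adjusted p = 0.823), and of -0.21 without WT 1.

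Among the 8 genes of the polymerases and primase (median -0.33), the catalytic subunits of polymerases alpha and epsilon had the largest differences. Pola1, which extends the primers, was at 47.5, 50.96 and 39.1 CPM in WT and at 18.8, 31.4 and 31.4 CPM in KO, a change of -0.75 ± 0.23 (SE, edgeR adjusted p = 0.499). Pole, the leading-strand polymerase, was at 25.1, 36.1 and 31.4 CPM in WT and at 15.7, 22.5 and 17.9 CPM in KO, a change of -0.72 ± 0.21 (SE, edgeR adjusted p = 0.484). Neither gene's groups overlapped, and for both WT 2, not WT 1, was the highest library. Levels in KO averaged 59.3% and 60.6% of WT. Both were lower at an unadjusted p under 0.05 in each of the 6 fits that left out a library, as was Mcm6 and no other of the 51 genes. In single fits 2.66% to 5.44% of all genes were lower at that threshold. The share of all genes lower in all 6 fits was not computed.

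The other 6 genes of the role were not lower at an unadjusted p under 0.05. Pola2, the accessory subunit of polymerase alpha, was at 48.99, 49.1 and 51.7 CPM in WT and at 46.1, 40.4 and 42.5 CPM in KO, without overlap, a change of -0.21 ± 0.16 (SE, edgeR adjusted p = 0.888). The catalytic and accessory subunits of polymerase delta, Pold1 and Pold2, which copy the lagging strand, had changes of -0.18 and -0.11, and both depended on single libraries. Pold1 was at -0.35 without WT 1, -0.048 without WT 3 and -0.058 without KO 3, and Pold2 at -0.051 without WT 1 and -0.0069 without KO 3. Pold2 was at 57.8, 50.8 and 54.3 CPM against 51.8, 56.1 and 43.5 CPM (edgeR adjusted p = 0.958, 95% interval of the change -0.49 to 0.28). KO 2 lay between WT 1 and WT 3. Prim1 and Prim2, the primase subunits, had changes of -0.33 each, and Pole2 had -0.41. For these 3 genes WT 1 was the highest library. Without it the changes were -0.03 for Prim1, -0.12 for Prim2 and -0.25 for Pole2, and Pole2 was at -0.18 without KO 1.

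The clamp and its loader had a median change of -0.53 over 6 genes, with 3 lower at an unadjusted p under 0.05 and 2 without overlap, beside 4.02% and 6.83% of all genes tested. Pcna, the sliding clamp, was at 509, 272 and 342 CPM in WT and at 266, 292 and 237 CPM in KO, a change of -0.50 ± 0.24 (SE, edgeR adjusted p = 0.793). WT 2 lay below KO 2, the change without WT 1 was -0.20, and a copy of 781 bases at 99.2% identity lies in Pcna-ps2. Rfc5, of the loader that opens the clamp, was at 60.2, 45.6 and 43.5 CPM against 32.9, 41.0 and 27.0 CPM, a change of -0.56 ± 0.21 (SE, edgeR adjusted p = 0.639). KO 2 was within a few CPM of the lower WT libraries without reaching them, and Rfc5 has a copy of 1020 bases at 96.2% identity in Gm12870.

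Rfc3 and Rfc4 had changes of -0.55 and -0.71, each with 1 WT library inside the range of KO, and of -0.29 and -0.36 without WT 1. For the largest loader subunit, Rfc1, the change was -0.29 without overlap of the groups, and -0.15 without KO 1. Rfc2 was at 87.6, 57.0 and 72.9 CPM in WT and 71.0, 85.8 and 56.0 CPM in KO, a change of -0.03 ± 0.22 (SE, edgeR adjusted p = 0.988). The libraries of the groups were interleaved, and the sign turned without WT 1 (0.13) and without KO 3 (0.12). Without WT 1 the median change of the 6 genes was -0.30. None was lower at an unadjusted p under 0.05 in edgeR without WT 1, without KO 1 or without KO 3, against 5.44%, 2.66% and 3.48% of all genes.

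Replication protein A, the trimer that coats single-stranded DNA, had changes of -0.24 (Rpa1), -0.48 (Rpa2) and -0.65 (Rpa3), with overlap in all 3. Without WT 1 these were -0.11, -0.30 and -0.16, so that much of each value rested on that library. Rpa2 was at 67.7, 46.5 and 52.0 CPM in WT and at 36.0, 52.0 and 30.9 CPM in KO (edgeR adjusted p = 0.799). KO 2 was level with WT 3. Rpa1 was at 204, 161 and 163 CPM against 142, 164 and 142 CPM (edgeR adjusted p = 0.885), with WT 2 and WT 3 about level with KO 2.

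In lagging-strand maturation, Fen1, the flap nuclease that trims Okazaki fragments, had the most negative change of the 51 genes with a wide interval. It was at 8.79, 4.88 and 4.25 CPM in WT and at 2.81, 5.09 and 2.15 CPM in KO, a change of -0.83 ± 0.40 (SE, edgeR adjusted p = 0.792, 95% interval -1.73 to 0.07). KO 2 lay above WT 2 and WT 3, and the change without WT 1 was -0.44. Of its exon bases, 84.2% are shared with Tmem258 and Gm10143 on the opposite strand, which limits what these counts say of Fen1. Lig1, the ligase that seals the fragments, was at 82.1, 77.8 and 88.9 CPM against 71.2, 68.8 and 58.1 CPM, without overlap, a change of -0.33 ± 0.16 (SE, edgeR adjusted p = 0.803). Rnaseh2a, which removes ribonucleotides, was at 47.1, 36.8 and 39.5 CPM against 40.7, 42.1 and 25.2 CPM, a change of -0.19 ± 0.23 (SE, edgeR adjusted p = 0.943). Its groups were interleaved, and without KO 3 its change was 0.01.

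Nucleotide supply had a median change of -0.41 over 4 genes, and of -0.24 without WT 1. Tyms, thymidylate synthase, was at 116, 55.8 and 69.5 CPM in WT and at 49.4, 56.9 and 51.1 CPM in KO, a change of -0.61 ± 0.26 (SE, edgeR adjusted p = 0.706). WT 1 carried much of the difference, WT 2 lay below KO 2, and without WT 1 the change was -0.25. Stretches of Tyms occur in many other transcripts, the longest of them 935 bases at 93.9% identity in Tyms-ps. Tk1, the thymidine salvage kinase, was at 76.2, 50.3 and 63.2 CPM against 54.9, 64.3 and 26.2 CPM, a change of -0.38 ± 0.31 (SE, edgeR adjusted p = 0.910). KO 3 was the only library of its group below every WT library, and without it the change was -0.08. The ribonucleotide reductase genes Rrm1 and Rrm2 had changes of -0.44 and -0.37, or -0.28 and -0.24 without WT 1. The groups of Rrm1 overlapped, with KO 2 level with WT 3. Rrm2 was at 316, 245 and 252 CPM in WT and 228, 222 and 180.4 CPM in KO, without overlap. The ratio of Rrm1 to Rrm2 in FPKM was 0.192 to 0.211 in WT and 0.16 to 0.218 in KO.

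Chromatin assembly factor 1 deposits histones behind the fork, and its genes had a median change of -0.42, or -0.26 without WT 1. Its large subunit gene, Chaf1a, was at 57.8, 45.9 and 40.6 CPM in WT and at 30.2, 37.5 and 23.7 CPM in KO, a change of -0.66 ± 0.22 (SE, edgeR adjusted p = 0.555). The groups did not overlap, although 52.5% of the exon bases are shared with Ubxn6 on the opposite strand. Chaf1b was at 48.2, 33.0 and 39.3 CPM against 36.6, 41.4 and 27.6 CPM, a change of -0.19 ± 0.22 (SE, edgeR adjusted p = 0.938), with overlapping groups, and of -0.03 without WT 1.

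The S-phase kinase genes had a median change of -0.45. Ccne2, cyclin E2, was at 31.1, 21.4 and 20.3 CPM in WT and at 10.5, 17.9 and 14.2 CPM in KO, a change of -0.77 ± 0.25 (SE, edgeR adjusted p = 0.546). The groups did not overlap, and KO averaged 58.4% of WT. Ccne1, cyclin E1, was at 42.8, 28.5 and 28.9 CPM against 24.7, 29.96 and 18.7 CPM, a change of -0.45 ± 0.24 (SE, edgeR adjusted p = 0.811), with KO 2 above WT 2 and WT 3 and a change of -0.22 without WT 1. Cdk2, the kinase they activate, was at 50.1, 46.8 and 42.3 CPM against 36.8, 34.0 and 33.0 CPM, without overlap, a change of -0.42 ± 0.16 (SE, edgeR adjusted p = 0.642).

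**Figure D4:**
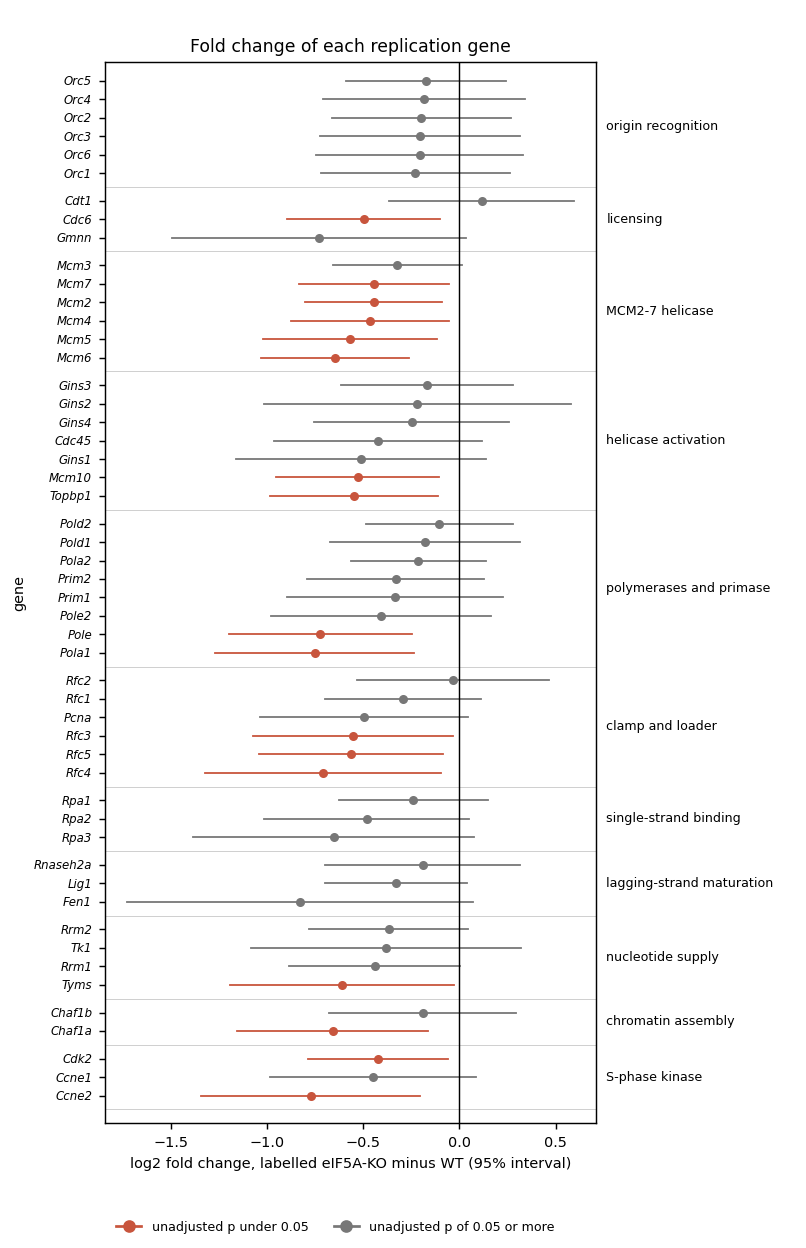
Log2 fold change of each of the 51 replication genes, libraries labelled eIF5A-KO minus WT, with its 95% interval from edgeR, by role; red marks an unadjusted p under 0.05. All points but Cdt1 (0.12) lie below 0, and those of the origin recognition complex lie between -0.23 and -0.17.

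Per gene length the 51 genes spanned a wide range of levels. Pcna was the most abundant, at 154 ± 49.6 FPKM in WT and 109.8 ± 11.3 FPKM in KO (SD, n = 3 each), followed by Rrm2 at 96.8 ± 13.6 and 75.4 ± 9.23 FPKM and Mcm6 at 50.8 ± 5.17 and 32.6 ± 3.35 FPKM. Mcm3 came next at 47.5 ± 0.54 FPKM in WT, within the spread of Mcm6 there, and above Mcm6 in KO at 38.2 ± 0.159 FPKM. The lowest were Pole at 2.74 ± 0.492, Fen1 at 2.44 ± 0.992 and Orc1 at 2.25 ± 0.32 FPKM in WT, which did not differ beyond their spread.

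Genes with E2F letters in the promoter window and genes without them were set side by side, and their difference was not tested. The median change was -0.42 for the 16 with a match and -0.40 for the 26 with a window and no match, and 9 of 16 and 7 of 26 were free of overlap, beside 6.83% of all genes tested. Letters of the CHR element (TTTGAA or TTCGAA, both strands) that marks many mitotic genes were in the windows of 16.7% of the 42 genes, against 21.7% of all genes with a window, and CCAAT or its reverse was in 61.9% against 41.1%. The mitosis genes described next had E2F letters in 4.55% and CHR letters in 72.7% of 22 genes with a window. Of the 51 genes, 11 share more than 10% of their exon bases with another gene, from 10.7% (Rfc5, with Wsb2) to 84.2% (Fen1), among them Ccne2 with Ints8 (17.4%) and Rnaseh2a with Prdx2 and Gm49661 (14.7%). A copy of at least 200 bases at 90% identity exists for 12 genes, among them Gmnn, Rnaseh2a, Rpa3, Rrm2 and Tk1 beside those named above. Leaving out every gene that shares more than 10% of its exon bases with another gene, or has such a copy, left 32 genes with a median of -0.33, of which 31 had a negative change, 9 were lower at an unadjusted p under 0.05 (4.02% of all genes) and 12 did not overlap (6.83% of all genes).

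Genes that act beside the 51 were read from a list of 67 others, among them firing kinases, topoisomerases, checkpoint factors and nucleotide enzymes. Of these, 60 had a negative change, with a median of -0.34. In edgeR none passed the adjusted threshold, 21 were lower at an unadjusted p under 0.05, none was higher at that threshold, and 25 were free of overlap, against 4.02%, 2.74% and 6.83% of all genes tested. Without KO 1 the number lower at that threshold was 10 (2.66% of all genes). Top2a, the topoisomerase that untangles daughter DNA, was at 239, 248 and 218 CPM in WT and at 116, 141 and 118 CPM in KO, a change of -0.91 ± 0.17 (SE, edgeR adjusted p = 0.242). The libraries labelled eIF5A-KO were far below WT. Dtl, the ubiquitin ligase adaptor that removes Cdt1 on loaded PCNA, was at 31.4, 29.6 and 27.5 CPM against 13.8, 17.2 and 16.04 CPM, a change of -0.91 ± 0.17 (SE, edgeR adjusted p = 0.286). Its groups were likewise well apart, in contrast to Cdt1 itself.

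Dna2, a nuclease of flap removal, was at 10.7, 12.6 and 10.2 CPM in WT and at 5.57, 6.04 and 6.18 CPM in KO (-0.91, edgeR adjusted p = 0.362). Uhrf1, which reads hemimethylated DNA behind the fork, was at 122, 124 and 129 CPM against 76.5, 87.2 and 64.7 CPM (-0.72, edgeR adjusted p = 0.379). Cdc7, the kinase that phosphorylates the loaded helicase, was at 15.5, 12.3 and 13.6 CPM against 7.77, 8.47 and 8.11 CPM (-0.77, edgeR adjusted p = 0.398), whereas its activator Dbf4 had a change of -0.19. Ccna2, cyclin A2, was at 96.4, 68.2 and 63.1 CPM against 39.2, 50.03 and 36.2 CPM (-0.86, edgeR adjusted p = 0.398). None of these genes overlapped between the groups except Dbf4.

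A list of 25 mitosis genes differed more than the replication genes, although the difference between the lists was not tested. Of the 25, 24 had a negative change, 18 were lower at an unadjusted p under 0.05, none passed the adjusted threshold in edgeR, and 19 were free of overlap, with a median change of -0.66. Over all genes tested the shares lower at that threshold and free of overlap were 4.02% and 6.83%. Kif11, the spindle motor, had -1.19 ± 0.19 (SE, edgeR adjusted p = 0.135). The lists share their 6 libraries, and their values are given side by side.

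**Figure D5:**
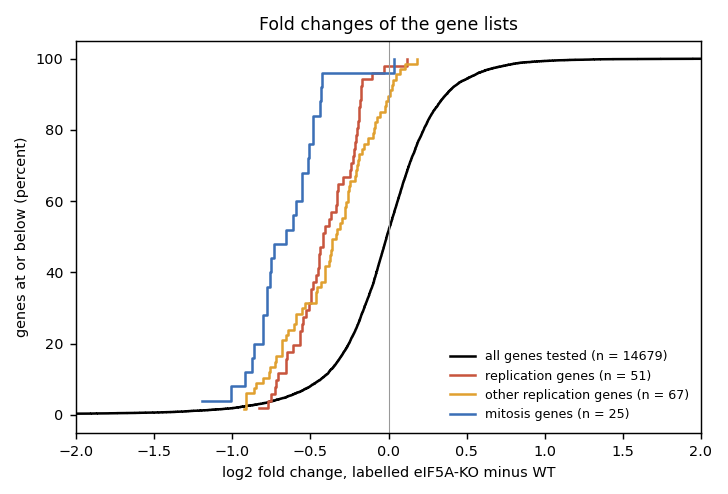
Cumulative share of genes by log2 fold change, libraries labelled eIF5A-KO minus WT, for all 14679 genes tested (black), the 51 replication genes (red), 67 other replication genes (yellow) and 25 mitosis genes (blue); the axis is limited to changes of 2 in size. The medians are -0.01, -0.42, -0.34 and -0.66.

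Markers of other cell types differed between the same libraries. The summed CPM of 8 mural cell markers was 371 to 629 in WT and 723 to 785 in KO, with all 8 changes positive. Myh11 among them rose (edgeR adjusted p = 0.0486), a call that was lost with DESeq2's size factors in the same fit. At an unadjusted p under 0.05, 4 of the 8 were higher, and 4 were free of overlap, against 2.74% and 5.68% of all genes tested. The summed CPM of 7 endothelial markers was 1153 to 2309 in WT and 1960 to 2980 in KO, with all 7 changes positive. None of the 7 passed the adjusted threshold in edgeR, and 1 was higher at an unadjusted p under 0.05 (2.74% of all genes). The 7 myoblast markers summed to 644, 1584 and 1137 CPM in WT and to 1147, 839.8 and 649.7 CPM in KO, overlapping, and 6 of their 7 changes were negative. Pax7 alone of these was lower at an unadjusted p under 0.05 (4.02% of all genes tested), with overlap (-1.50, edgeR adjusted p = 0.484). The 8 fibroblast markers summed to 2969 to 3617 CPM in WT and 2910 to 3717 CPM in KO, a sum in which Dcn was the largest term on average. Of their changes, 5 of 8 were negative, with a median of -0.12. Col1a1 and Col1a2, collagen I genes, went the other way, with 0.72 and 0.71 without overlap (edgeR adjusted p = 0.504 and 0.495). The 7 macrophage markers summed to 52.5 to 123 and 53.4 to 151 CPM. The 10 markers of differentiating myocytes summed to 254 to 507 and 177 to 285 CPM, with all 8 that could be tested lower in value, Mymx at 0 counts in KO 3 and Acta1 making up much of the sum. Their median change was -1.42, with none past the adjusted threshold in edgeR. At an unadjusted p under 0.05, 5 of the 8 were lower, and 3 were free of overlap, against 4.02% and 6.83% of all genes tested. Myog, the factor that starts terminal differentiation, was at 14.4, 76.3 and 32.2 CPM in WT and at 8.93, 5.09 and 2.10 CPM in KO, without overlap (-2.94, edgeR adjusted p = 0.362). WT 1, the library with the highest levels of most replication genes, had the lowest sums of the myoblast, endothelial and mural markers and the highest share of mitochondrial transcripts of the 6 libraries. The part of cell make-up and of library quality in the lower replication genes was not tested.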

How the data were processed

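The authors extracted total RNA with TRIzol, built libraries with NEBNext Ultra and, per the methods and the submitters' processing notes, mapped reads with HISAT to mm10. They credit DEGSeq2 with the coverage per gene. The HISAT version, the annotation, the counting rule and the strand setting are not given in the sources used here. One deposited table gives raw read counts per gene and another gives FPKM, both made by the authors. The FPKM denominators were checked to follow a size factor per library.

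Counts were tested in R 4.3.3 with edgeR 4.0.16 (filterByExpr, TMM, two-sided quasi-likelihood test, Benjamini-Hochberg adjustment over 14679 genes). The biological coefficient of variation was 0.239 at 16281216 to 17734551 counts per library. Members and gene lists were chosen with earlier results of these data known. Genes given library by library were Eif5a, Mcm2 to Mcm7, the lowest and highest p of each role, and the 6 lowest p of the other replication genes; Pola1, Mcm10, Pola2, Pcna, Gmnn, Lig1, Rrm2, Cdk2 and Myog were added after their values were seen. Alternatives were other scalings and filters, DESeq2 1.42.0, limma 3.58.1 (voom, or log2(FPKM + 1) and log2(FPKM + 0.1)), a replicate block and leaving out each library. The edgeR steps were tested on simulated counts. Shared exons came from GENCODE M21 (GRCm38), in which 50 of the 51 genes had the coordinates of the files, and copies from blastn 2.17.0. Counts carry no molecular identifiers. Protein sequences were not analysed here.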

Additional observations from a re-analysis of the deposited data

How the results depend on the processing

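Of 442 values of the 26 genes named by rule, under 17 alternatives, 435 kept their sign and their side of the adjusted threshold. The other 7 turned sign, each on leaving out a library: Orc4 (0.020), Cdt1 (-0.030), Gins2 (0.30) and Rfc2 (0.13) without WT 1, Cdt1 (-0.028) without KO 1, and Rfc2 (0.12) and Rnaseh2a (0.013) without KO 3. On leaving out each library, Orc4 ranged from -0.36 to 0.020, Cdt1 from -0.030 to 0.25, Gins2 from -0.49 to 0.30, Rfc2 from -0.18 to 0.13 and Rnaseh2a from -0.31 to 0.013. No replication gene of the 51 passed the adjusted threshold under any alternative. The number lower at an unadjusted p under 0.05 was 14 to 24 under the other settings (3.49% to 4.5% of all genes), against 17 (4.02%). On leaving out a library it was 5 to 25 (2.66% to 5.44% of all genes), with 5 both without KO 1 and without KO 3 (2.66% and 3.48% in those fits). Groups without overlap numbered 19 to 20, but 29 with library size alone (7.66% of all genes), and 20 to 33 on leaving out a library, with 30 without WT 2 and 33 without KO 2. That share over all genes also rises when fewer libraries are compared, from 6.83% to 13.6% without WT 2 and 9.55% without KO 2. The median change was -0.45 to -0.38, and -0.56 to -0.25 on leaving out a library. All 6 genes of MCM2-7 were free of overlap under all 17 alternatives. Part of this was fixed in advance. Leaving out a library can hardly end such a separation, and limma-voom and the replicate block use the levels of the main fit. The number of the 6 lower at an unadjusted p under 0.05, 5 of 6, was 3 with the replicate block (3.49% of all genes) and without WT 3 (3.39%). It was 1 without KO 1 (2.66%) and without KO 3 (3.48%). For the 67 other replication genes, leaving out a library gave 10 to 24 lower genes, with 10 without KO 1 (2.66% of all genes) and 24 without WT 2 (4.84%). The number higher was 0 to 1, with 1 without WT 1, where 711 of all 15056 genes tested were higher. Eif5a moved between -0.13 (without WT 2) and 0.23 (without WT 1), and was -0.0090 without KO 1 and -0.065 without KO 2. Over all genes, calls past the adjusted threshold numbered 2 lower and 1 higher, 69 and 19 in DESeq2, 184 and 65 without a filter, 48 and 8 without WT 1, and 0 in limma-voom. Causes of these shifts were not tested.

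Replicate numbers did not pair the samples: deviations of same-numbered libraries correlated at 0.094, -0.196 and 0.109. With the replicate number as a block, 14 of the 51 genes were lower at an unadjusted p under 0.05 (3.49% of all genes), with a median of -0.43. The block leaves the levels as they were, so that 19 were again free of overlap (6.83% of all genes). Over all genes 17 were called lower and 7 higher.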
